A study of Mus musculus with 12 samples.

Results

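Gene expression of the WT cortex was compared with that of the WT cerebellum in mice at 12 weeks of age. The comparison used 6 of the 12 libraries of the series, the 3 WT cortex libraries (B, C and D) and the 3 WT cerebellum libraries (2, 4 and 6), chosen by the region and genotype in their names. The series was made to study spinocerebellar ataxia type 1 (SCA1), so the WT mice are littermates of SCA1 KI mice (Atxn1 154Q/2Q), carry no knock-in allele and share with them the C57BL/6J background. Whole cortices and whole cerebella were macro-dissected and frozen, and their poly-adenylated RNA was sequenced. The labels list male mice, while the methods of the study describe males and females, and transcripts of the Y chromosome such as Ddx3y were found in all 6 WT libraries (2664 to 3471 normalized counts in the cortex and 4374 to 4525 in the cerebellum). The study describes its cerebellar data as a re-analysis of a dataset that the laboratory had published before, so region and dataset cannot be told apart in this comparison.

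The cerebral cortex develops from the telencephalon, at the front of the neural tube, and the cerebellum from the first segment of the hindbrain. Cortical tissue is built mainly of glutamatergic projection neurons in layers, with GABAergic interneurons that migrate in from the ventral telencephalon. The cerebellum holds very many small glutamatergic granule cells, whose parallel fibers contact the GABAergic Purkinje cells, the output neurons of the cerebellar cortex. In whole tissue, fewer cells of a type and less RNA per cell cannot be told apart.

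Among the genes with the largest differences between the regions, the stretches before the start of transcription varied from rich to poor in CpG, as the following 250 bases show (RefSeq, GRCm38.p6, written 5′ to 3′ on the strand of the gene, with matches to 6 searched motifs in capitals). In each direction they are shown for up to 3 of the 12 genes with the largest differences, namely those whose RefSeq start coincides with the start of the gene in GENCODE or lies up to 50 bases before it.
Rasl10a (chr11:5057878-5058127, plus strand): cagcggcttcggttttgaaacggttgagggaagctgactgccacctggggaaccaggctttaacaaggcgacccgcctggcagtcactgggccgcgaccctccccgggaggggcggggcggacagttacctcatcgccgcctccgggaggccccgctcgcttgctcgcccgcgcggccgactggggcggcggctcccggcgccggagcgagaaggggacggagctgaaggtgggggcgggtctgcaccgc
Gabra6 (chr11:42321073-42321322, minus strand): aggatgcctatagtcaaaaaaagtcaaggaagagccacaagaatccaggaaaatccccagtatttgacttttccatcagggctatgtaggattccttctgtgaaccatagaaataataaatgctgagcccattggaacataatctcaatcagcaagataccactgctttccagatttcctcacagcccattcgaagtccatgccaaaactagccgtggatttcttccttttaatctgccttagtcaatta
Pcp2 (chr8:3625548-3625797, minus strand): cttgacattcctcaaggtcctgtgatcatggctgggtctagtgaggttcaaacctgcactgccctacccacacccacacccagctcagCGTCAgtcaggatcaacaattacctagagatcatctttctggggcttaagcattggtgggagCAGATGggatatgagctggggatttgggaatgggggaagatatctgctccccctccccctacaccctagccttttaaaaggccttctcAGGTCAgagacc
Nrk (chrX:138914180-138914429, plus strand): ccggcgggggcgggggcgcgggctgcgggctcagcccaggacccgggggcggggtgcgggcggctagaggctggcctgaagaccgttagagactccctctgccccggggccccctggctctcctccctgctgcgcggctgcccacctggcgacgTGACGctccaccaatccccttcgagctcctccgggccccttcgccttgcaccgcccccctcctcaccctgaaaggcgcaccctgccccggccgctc
Rasl10a, a small Ras-like GTPase that was higher in the cortex, had 29 CpG in these bases. Gabra6, the granule cell subunit of the GABA-A receptor, had 2 CpG and Pcp2, a Purkinje cell protein, had 1. Nrk, a protein kinase that was higher in the cerebellum, had 24 CpG. The Pcp2 stretch holds CGTCA (the other strand of TGACG, the core of a cAMP response element) 162 bases before the start, the E-box CAGATG at 100 bases and AGGTCA, the core of a site for ROR-type nuclear receptors, at 12 bases. The Nrk stretch holds TGACG 96 bases before the start, and the other 2 stretches hold none of the 6 motifs.

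Each library had between 29520855 and 38335590 reads on genes. The deposited values are normalized counts, that is, reads divided by 1 size factor per library, and 100% of the values were whole reads within a tolerance of 0.001 reads. Chi-square values of 9.72 to 27.2 per gene between WT replicates exceeded sampling noise, and each library was kept as a separate sample. Across the 15368 tested genes, Pearson's r of the log2 values was 0.989 to 0.992 within the cortex, 0.989 to 0.994 within the cerebellum and 0.868 to 0.892 between the regions. These are descriptions across genes, which are not independent replicates.

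Before the comparison, some libraries stood apart in genes of neighboring tissue. The cerebellum library 2 held transcripts of Hox genes, which mark the caudal hindbrain and spinal cord, and the summed normalized count of the 15 Hox genes in the table was 1149 there, against 25.7 in library 4 and 31.4 in library 6. The cortex library B held more RNA of striatal genes than the others, with 698, 84.1 and 128 normalized counts of Adora2a, a striatal adenosine receptor, in libraries B, C and D, and 378, 18.8 and 45.5 of the dopamine receptor Drd2. The same cortex library also held 1298, 41.0 and 54.6 counts of the choroid plexus gene Ttr in that order. The cortex library D held small amounts of cerebellar transcripts, with 1.19, 0 and 42.1 counts of Gabra6. All 3 WT cerebellum libraries held transcription factors of the midbrain and brainstem such as Shox2 (210.0, 119.7 and 185 counts), Pou4f1 (139, 46.4 and 83.9) and Gata3 (157, 48.9 and 95.5), which in the SCA1 KI cerebellum libraries lay at 0 to 9.68, 2.53 to 10.6 and 2.53 to 12.6. The part of neighboring tissue in the results was not tested, and values without these libraries are given beside several results.

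To find how the regions differed, log2(normalized count + 1) was compared with limma, and the LFC is the log2 value of the cortex minus that of the cerebellum. A gene counted as called when its p, adjusted by Benjamini-Hochberg, was under 0.05 and its LFC lay beyond 0.25 in either direction. Of 15368 tested genes, 4661 (30.3%) were higher in the WT cortex and 4598 (29.9%) were higher in the WT cerebellum. At least 2-fold differences were found in 2023 genes (13.2%) toward the cortex and 1603 (10.4%) toward the cerebellum, and differences of at least 8-fold in 411 and 299 genes. Together 60.2% of the genes were called. The median LFC of all tested genes was 0.0018. In 70% of the tested genes all cortex libraries lay on one side of all cerebellum libraries, and 59.4% were also called. An unadjusted p under 0.05 was found for 67.3%.

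**Figure D1:**
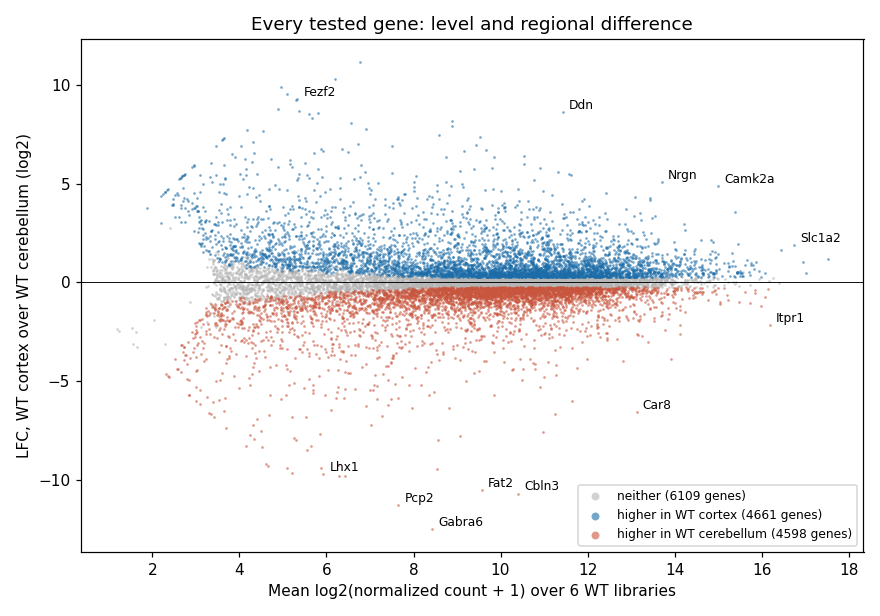
Each point is 1 of the 15368 tested genes, with its mean log2(normalized count + 1) over the 6 WT libraries on the horizontal axis and its LFC (WT cortex over WT cerebellum, log2) on the vertical axis. Blue and red points are the 4661 and 4598 genes called higher in the cortex and in the cerebellum, gray points are neither, and Gabra6 (−12.48) and Pcp2 (−11.30) have the lowest values.

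The strongly regional genes made up a sizable part of the RNA. The 2023 genes at least 2-fold higher in the cortex took 21.1% to 21.7% of the reads of each cortex library and 6.72% to 7.47% of those of each cerebellum library. The 1603 genes at least 2-fold higher in the cerebellum took 10.7% to 11.9% of the cerebellar reads and 2.69% to 2.99% of the cortical reads. Both sets had transcripts of ordinary size, with a median longest transcript of 3319 bases for the cortical genes, 3494.5 bases for the cerebellar genes and 3399.5 bases for all tested genes, and 93.3%, 92.9% and 95.6% of them were protein coding. After the dependence on length and GC of the transcripts was removed library by library, the calls were 4137 genes toward the cortex and 4760 toward the cerebellum of the 14638 genes with a known transcript.

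Genes that pattern the forebrain and define projection neurons led the differences toward the cortex. Fezf2, which specifies subcerebral projection neurons of layer 5, had 1009, 1139 and 887 normalized counts in the cortex libraries, whereas all cerebellum libraries together held 2 reads. The ratio of its reads was 1404 (95% interval 388 to 11601), exact for counting error only. Tbr1, a T-box factor of deep-layer neurons, lay at 8222, 7682 and 8102 in the cortex and 32.0, 23.2 and 25.6 in the cerebellum (LFC 8.17 ± 0.13 with its standard error, and adjusted p = 1.57e-09 from limma). In both genes the lowest cortex library was more than 100 times the highest cerebellum library in level. Both were named by a rule that required a call, no overlap between the regions and a large LFC. Their separation and the p of Tbr1 are therefore descriptions.

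Synaptic genes of cortical neurons followed at much higher counts. Ddn encodes dendrin, a protein of dendrites and the postsynaptic density, and had 51873, 51239 and 60693 normalized counts in the cortex and 184, 105 and 135 in the cerebellum (LFC 8.62 ± 0.17, adjusted p = 4.58e-09 from limma). Its exons overlap those of B130046B21Rik, as those of Chrm1 and Rasl10a do with Gm22820 and Gas2l1. Nrgn, whose product neurogranin binds calmodulin in dendritic spines, had 76063, 76042 and 83271 and 2687, 1777 and 2479.8 counts (LFC 5.10 ± 0.14). Camk2a, which encodes the alpha subunit of the kinase CaMKII, had 177891, 167504 and 188418 and 6982, 5315 and 5972 counts (LFC 4.88 ± 0.10). No cerebellum library reached the level of a cortex library in any of these genes, which for Ddn was part of the rule that named it. In 70% of all tested genes the regions did not overlap. Per kb of exon, Nrgn was the most abundant gene of the WT cortex, with 53998 ± 2868 normalized counts per kb (SD, n = 3), against 1593 ± 328 in the cerebellum. Among the 5 most abundant were also Calm2, Camk2n1 and Cpe. Of these, Calm2 encodes calmodulin and Camk2n1 encodes an inhibitor of CaMKII, while Cpe is an enzyme that processes neuropeptides. Chrm1, the M1 muscarinic acetylcholine receptor (9526, 8914 and 9693 against 82.2, 41.5 and 52.4 counts, LFC 7.35), and Kcnv1, a modulatory potassium channel subunit (7213, 7789 and 7309 against 54.8, 19.5 and 23.3, LFC 7.94), showed the same pattern. Other genes among the 12 largest differences toward the cortex were Gm11549 (LFC 10.33), Crym (8.06), which encodes a thyroid hormone-binding protein, the Nogo receptor homolog Rtn4rl2 (7.77) and Rasl10a, with means of 1206 ± 90.4 and 9.59 ± 5.53 normalized counts (SD, n = 3).

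**Figure D2:**
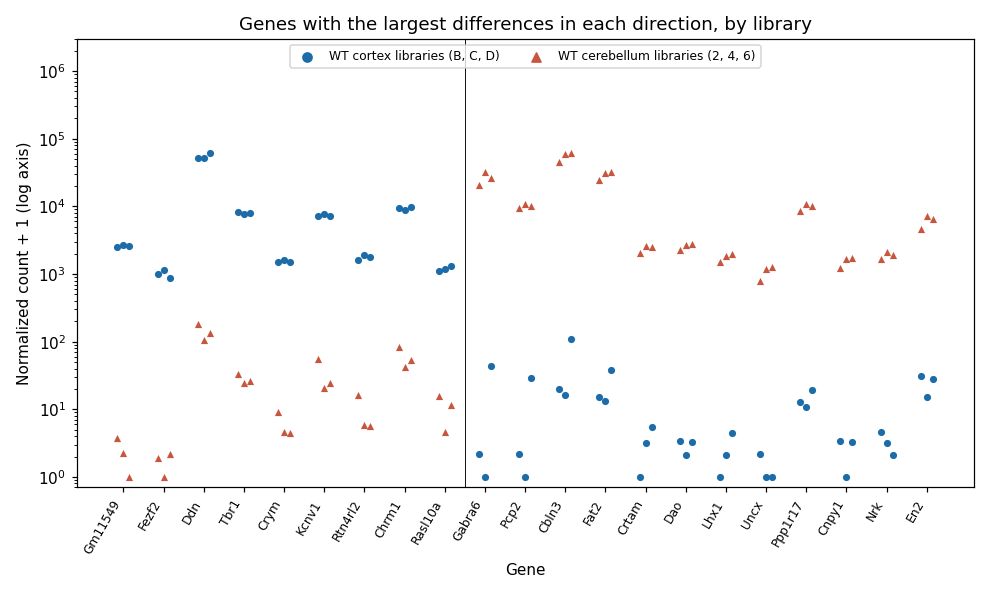
Normalized count + 1 (log axis) of genes among the 12 with the largest LFC in each direction, 9 of them cortical and 12 cerebellar. They were taken from called genes with a mean of at least 1000 in the higher region and without overlap between the regions. Circles are the 3 WT cortex libraries and triangles the 3 WT cerebellum libraries, in the order B, C, D and 2, 4, 6. The cortex library D lies above B and C for Gabra6, Pcp2, Cbln3 and Fat2.

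Of the 24 tested markers of cortical excitatory neurons, 20 were higher in the cortex and 1 was higher in the cerebellum, with a median LFC of 2.66. The shares among all tested genes were 30.3% and 29.9%. Etv1, a factor of layer 5 neurons that granule cells also use, was higher in the cerebellum (9844, 15035 and 13339 against 2611, 2968 and 2465 counts in the cortex, LFC −2.23 ± 0.14). Neurod2 (−0.30), Cux1 (0.06) and Syt6 (0.20) passed the test in neither direction, although without the cerebellum library 2 Neurod2 was higher in the cerebellum (LFC −0.47). Neurod2 was also called higher in the cerebellum by edgeR (adjusted p = 0.0406) and DESeq2 (adjusted p = 0.0238) on recovered reads, and by limma on thinned reads (adjusted p = 0.0485) and after removal of the length and GC trend (adjusted p = 0.0119). Slc17a7, the vesicular glutamate transporter VGLUT1 that both cortical projection neurons and granule cells use, was higher in the cortex by an LFC of 2.07 ± 0.12. Mef2c, an activity-dependent transcription factor, had an LFC of 4.16 ± 0.056 and Neurod6 one of 3.58 ± 0.14. Lamp5, a marker of superficial layers and interneurons, was highest in library 2 of the cerebellum group, with 861, 53.7 and 133 counts in the order 2, 4 and 6, against 10694 to 12540.2 in the cortex, and its LFC of 6.00 was 7.11 without that library.

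Of the 18 markers of forebrain interneurons, 14 were higher in the cortex and 4 were higher in the cerebellum, with a median LFC of 4.89. The shares among all tested genes were 30.3% and 29.9%. The homeobox factors that interneurons carry from the ventral telencephalon were near 0 in the cerebellum. Dlx1 had 881, 1074 and 781 normalized counts in the cortex and 5.48, 2.44 and 0 in the cerebellum, and Lhx6, the factor of interneurons from the medial ganglionic eminence, had means of 855 ± 67.7 and 7.35 ± 3.27 (SD, n = 3, LFC 6.75 ± 0.27). The ranges of the regions did not overlap in either of them, as in 70% of all tested genes. The neuropeptides Vip (1793, 2256 and 2269 against 129.6, 81.8 and 81.5, LFC 4.44 ± 0.19) and Sst (5748, 4946 and 5886 against 864, 368 and 528, LFC 3.32 ± 0.25) were well above the floor in the WT cerebellum. Without the cerebellum library 2 their LFCs were 4.66 and 3.64. Both were far lower in the SCA1 KI cerebellum libraries, at 2.53, 0 and 1.94 counts of Vip and 56.4, 41.2 and 72.6 of Sst. The 4 members that were higher in the cerebellum were Calb2, the calcium buffer calretinin of granule cells (10617, 14149.6 and 13891 against 567, 589 and 343 counts, LFC −4.72 ± 0.20), the homeobox factor Prox1 (LFC −2.10), neuronal nitric oxide synthase Nos1 (−1.84) and Adarb2 (−0.36). The call of Adarb2 was lost in limma with all 12 libraries in the fit (LFC −0.36, adjusted p = 0.0607) and with the cerebellum library 2 and the cortex library B left out (LFC −0.26, adjusted p = 0.0692).

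Toward the cerebellum, genes of granule cells and Purkinje cells led. Gabra6, the GABA-A receptor subunit of granule cells (chr11:42306437-42321072, minus strand, GRCm38), had 20711, 32079.6 and 26698 normalized counts in the cerebellum libraries and 1.19, 0 and 42.1 in the cortex libraries. Its LFC of −12.48 ± 1.12 (adjusted p = 1.30e-05 from limma) was the largest toward the cerebellum, and the trace in the cortex lay almost entirely in library D. Cbln3, a secreted cerebellin of granule cells, had 45417, 60518 and 61333 counts in the cerebellum and 19.0, 15.5 and 108 in the cortex (LFC −10.71 ± 0.59). Fat2, a protocadherin of parallel fibers, had 24336, 30832 and 32384 and 14.3, 12.2 and 37.6 counts (LFC −10.51 ± 0.34). Pcp2, the Purkinje cell protein also called L7 (chr8:3623371-3625545, minus strand), had 9414, 10742 and 10249 counts in the cerebellum and 1.19, 0 and 28.5 in the cortex (LFC −11.30 ± 1.00). Its exons overlap those of Pet100. Ppp1r17, a Purkinje cell substrate of cGMP-dependent protein kinase, had 8614, 10837 and 10064 and 11.9, 9.96 and 18.2 counts (LFC −9.46 ± 0.20). The groups were apart in each of these 5 genes by the rule that named them. Without the cortex library D the LFC was −14.11 for Gabra6, −12.74 for Pcp2, −11.57 for Cbln3 and −11.00 for Fat2.

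Further genes with the largest differences toward the cerebellum were Crtam (LFC −9.82), an adhesion molecule of the immunoglobulin family, and Dao (LFC −9.80), the D-amino acid oxidase that degrades D-serine. The same group held the homeobox factors Lhx1 (−9.72) and Uncx (−9.68), Cnpy1 (−9.42), Nrk (−9.24) and En2 (−7.99), the engrailed factor of the midbrain and cerebellum. Car8, a carbonic anhydrase-like protein that binds the IP3 receptor of Purkinje cells, was the most abundant of the Purkinje cell genes per kb of exon, at 22772 ± 2878 normalized counts per kb in the cerebellum and 243 ± 59.3 in the cortex (SD, n = 3). Itpr1, that IP3 receptor itself, was expressed in both regions and higher in the cerebellum (139168, 173929.5 and 168441 against 34629, 36281 and 34428 counts, LFC −2.19 ± 0.092). Calb1, the calcium buffer calbindin, was higher by an LFC of −2.63 ± 0.10 in the same direction and the calcium buffer Pvalb by −2.91 ± 0.086.

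Of the 19 granule cell markers, 17 were higher in the cerebellum and 1 was higher in the cortex, with a median LFC of −4.18. The exceptions were Rbfox3, which encodes the general neuronal protein NeuN and was higher in the cortex (LFC 0.34 ± 0.12, adjusted p = 0.0277 from limma), and the potassium channel Kcnk9, which passed in neither direction (LFC 0.13 ± 0.10). Of the 25 Purkinje cell markers, 24 were higher in the cerebellum and none was higher in the cortex, with a median LFC of −3.87. For both lists and the next one, the shares among all tested genes were 29.9% toward the cerebellum and 30.3% toward the cortex. Without the cerebellum library 2, Rbfox3 had an LFC of 0.19, under the limit. Leaving out any of the cortex libraries also ended the call of Rbfox3 (LFC 0.31 to 0.37). With both the cerebellum library 2 and the cortex library B left out, 17 granule cell markers and all 25 Purkinje cell markers were higher in the cerebellum and none of either list in the cortex. Of 15 markers of other cerebellar neurons, 11 were higher in the cerebellum, among them Slc6a5, the glycine transporter of Golgi and nuclear neurons (1191, 708 and 689.6 against 3.56, 1.11 and 5.69 counts, LFC −7.70 ± 0.41). The 4 that were higher in the cortex were Tbr1, Sorcs3 (1.22), Grm2 (1.67) and Nxph1 (0.71), all also expressed by forebrain neurons. Eomes, a factor of unipolar brush cells, differed in level between replicates (418, 1656 and 731 counts in the cerebellum and 101, 90.8 and 2.28 in the cortex), and its LFC of −4.67 ± 1.16 was −3.04 without the cortex library D.

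**Figure D3:**
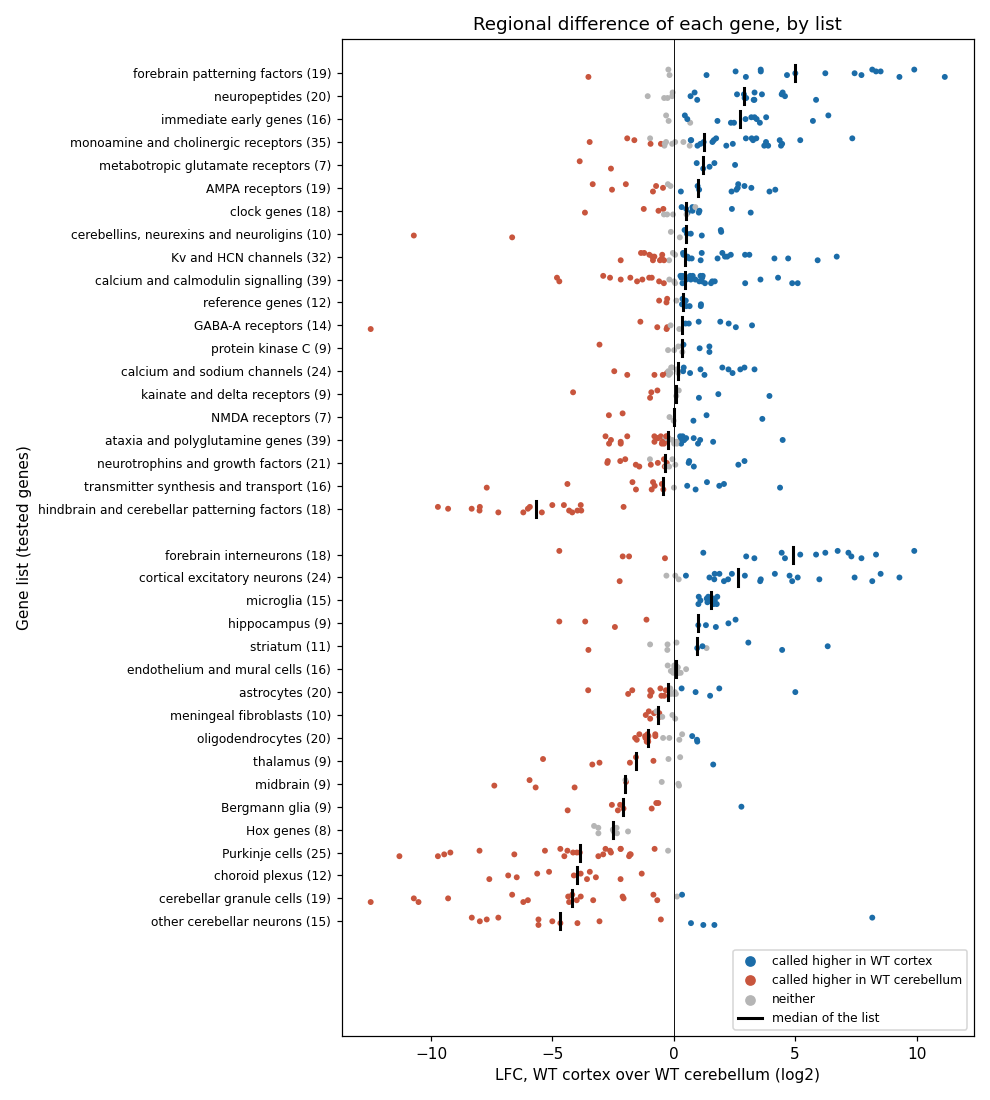
LFC (WT cortex over WT cerebellum, log2) of every tested gene in each list of 5 or more tested genes, with lists of cell type or tissue markers below and lists by function above. Blue and red points are genes called higher in the cortex and in the cerebellum, gray points are neither and black bars are medians. All 15 microglial markers lie to the right of 0, all 12 choroid plexus markers to the left, and the 16 genes of endothelium and mural cells around 0.

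Transcription factors that pattern the brain along its axis divided almost completely by region. Of 19 forebrain patterning factors, 16 were higher in the cortex (median LFC 5.01), and of 18 tested hindbrain and cerebellar factors, all 18 were higher in the cerebellum (median LFC −5.68). The shares among all tested genes were 30.3% toward the cortex and 29.9% toward the cerebellum. The forebrain factors included Emx1 (859, 802 and 1143 normalized counts in the cortex and 3.65, 2.44 and 0 in the cerebellum), Lhx2 (LFC 5.01 ± 0.24) and Emx2 (4.66). Six3 was the one forebrain factor that was higher in the cerebellum, with 320.5, 132 and 233 counts there and 84.4, 3.32 and 17.1 in the cortex. In the SCA1 KI cerebellum libraries Six3 lay at 1.37 to 1.94 counts. Among the hindbrain factors, Barhl1 (574, 633 and 680.2 counts) and Pax3 (294, 359 and 306) were without a read in the WT cortex and were at least 550.0-fold and 279.6-fold higher in the cerebellum, taking 3 reads over the group as the floor. Zic1, a zinc finger factor of granule cells, was found in both regions (19859, 30089 and 28354 against 315, 406 and 492 counts, LFC −6.01 ± 0.19).

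A set of 39 genes was found in the WT cortex (mean of at least 50 normalized counts) with at most 3 reads in each WT cerebellum library, and 40 genes met the reverse rule. Without the cerebellum library 2 the first set held 60 genes, and leaving out the other libraries 1 at a time gave 38 to 40. Of the full sets, 26 of the 39 and 34 of the 40 were protein coding. Of the 39 cortical genes, Gm11549 had the highest mean (2614 ± 108, SD, n = 3), and Fezf2 and the antisense transcripts Dlx6os1 (979 ± 206) and Dlx1as (955 ± 198) were among the next. Dlx1as overlaps exons of Dlx1, and reads of the pair cannot be separated without known strand. Of the 40 cerebellar genes the highest means were those of Dao (2561 ± 255), Nrk (1912 ± 237), Lhx1 (1778 ± 235), Cnpy1 (1539.9 ± 257) and Uncx (1086 ± 259). Some of the 40 were nearly absent from the SCA1 KI cerebellum. Their WT and SCA1 KI cerebellum means were 172 and 4.63 (Shox2), 117 and 4.66 (Pou4f2), 100 and 5.95 (Gata3), 64.6 and 2.45 (Pax7), and 54.1 and 4.03 (Sox14). Hoxb5 (197, 3.66 and 0 counts) and Hoxa5 (189, 2.44 and 3.49) lay almost wholly in the cerebellum library 2, and neither was called. Skor2, a co-repressor of Purkinje cells, had 446, 658 and 692 counts in the cerebellum and no read in the WT cortex (at least 524-fold higher). In the SCA1 KI libraries, which the rule did not use, 32 of the 39 cortical genes again had at most 3 reads in each cerebellum library. Of the 40 cerebellar genes, 19 had at most 3 reads in each SCA1 KI cortex library. The SCA1 KI cortex library F held 534 reads of the 40 genes in sum, against 114 in library A and 71 in library E. Without library F, an alternative chosen after seeing the data, 31 of the 40 genes had at most 3 reads in each remaining SCA1 KI cortex library. Leaving out A or E gave 20 and 21, and leaving out 1 SCA1 KI cerebellum library gave 32 to 36 of the 39 cortical genes.

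The promoters of strongly regional genes held fewer CpG than those of all genes. RefSeq windows of 300 bases (250 before to 50 after the start) were matched to 11447 of the 15368 tested genes, with a median of 20 CpG per window. The median was 10.5 for the 284 matched genes at least 8-fold higher in the cortex and 10 for the 207 matched genes at least 8-fold higher in the cerebellum. For the genes under the floor in the other region it was 6 (28 cortical genes) and 11.5 (32 cerebellar genes). On either strand, the homeodomain core TAATTA was in 2.66% of all windows, in 6.34% and 7.25% of the windows of the 8-fold genes of the cortex and cerebellum, and in 5 of the 28 and 6 of the 32 windows of genes under the floor. The TATA box TATAAA was in 7.30% of all windows and in 15.1% and 13.5% of those of the 8-fold genes. TGACG was in 30.3% of all windows and in 21.5% and 17.9%. The E-boxes CAGATG and CAGCTG were in 12.1% and 15.6% of all windows, in 18.0% and 21.1% for the cortex and in 19.3% and 17.4% for the cerebellum, and AGGTCA was in 12.1%, 12.7% and 16.4%. These shares are descriptions without a test.

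Receptors for the main transmitters were expressed in both regions but with different subunits. Of 14 tested GABA-A receptor subunits, 7 were higher in the cortex and 5 in the cerebellum (median LFC 0.35). Among all tested genes the shares were 30.3% and 29.9%. Measured as counts per kb of exon over the 6 alpha subunits, Gabra6 made up 61.9% ± 5.7 (SD, n = 3) of the cerebellum and 0.063% ± 0.104 of the cortex. Gabra3 made up 25.2% ± 0.29 of the cortex and 2.56% ± 1.52 of the cerebellum. For each subunit in this and the following families, except where stated, the 3 cortex libraries lay beyond the 3 cerebellum libraries, which gives p = 0.1 in a two-sided exact permutation test, the smallest that 3 against 3 libraries allow. Gabra5 was higher in the cortex (2746, 2957 and 2893 against 786, 150.2 and 242 counts, LFC 3.22 ± 0.48), with the cerebellum library 2 above libraries 4 and 6 (LFC 3.90 without library 2). Gabrd, the delta subunit that pairs with Gabra6 in granule cells, was higher in the cerebellum (LFC −0.68 ± 0.14). Without the cortex library B, 8 subunits were higher in the cortex and 2 in the cerebellum.

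The glutamate receptor subunits also differed in their proportions. Among the GluN2 subunits of the NMDA receptor, Grin2b made up 29.8% ± 2.5 of the cortex and 1.06% ± 0.46 of the cerebellum per kb of exon, and Grin2c 50.8% ± 2.1 and 93.0% ± 2.2. Grin2a made up 11.3% ± 0.40 and 1.90% ± 0.33. Grin2b had 7956, 6462 and 5705 normalized counts in the cortex and 676, 443 and 496 in the cerebellum (LFC 3.65 ± 0.17), and Grin2c 2419, 2272 and 2224 and 7747, 10852 and 11675 (LFC −2.11 ± 0.14). In the cortex Grin2b thus had more counts than Grin2c but a smaller share per kb, as its annotated exons are longer. The shares depend on that annotation and do not rank the subunits by count. Grin1, the subunit that every NMDA receptor needs, was higher in the cortex by an LFC of 0.81 ± 0.077. Among the AMPA receptor subunits, Gria2, which makes the channel impermeable to calcium, made up 31.0% ± 0.87 of the cortex and 10.97% ± 0.057 of the cerebellum. Gria4 made up 14.2% ± 1.4 and 38.9% ± 1.1, and Gria1, the AMPA subunit of Bergmann glia as well as of neurons, 34.0% ± 2.6 and 43.0% ± 1.0. Of 19 AMPA receptor subunits and auxiliary proteins, 11 were higher in the cortex and 6 in the cerebellum. The auxiliary subunits were split, with Cacng3 (3.94), Shisa7 (3.19) and the pentraxin Nptx2 (4.18) higher in the cortex, and Shisa6 (−3.34) and Cacng5 (−2.55) higher in the cerebellum. Of 7 NMDA receptor genes, 3 passed toward the cortex and 2 toward the cerebellum, and of 9 kainate and delta receptor genes, 3 and 4. The median LFC of these lists was −0.0065 and 0.10, and 60.2% of all tested genes were called.

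Of 7 metabotropic glutamate receptors, 5 were higher in the cortex and 2 in the cerebellum, against 30.3% and 29.9% of all tested genes. Grm5 had 10968, 11320.0 and 10212 normalized counts in the cortex and 2719.8, 1373 and 1784 in the cerebellum (LFC 2.52 ± 0.20). The presynaptic receptor Grm4 showed the reverse (1112, 1175 and 895 and 12861, 16384 and 17604, LFC −3.88 ± 0.13). The ranges were apart in both genes, as in 70% of all tested genes. Cbln1, a secreted organizer of parallel fiber synapses, was 102-fold higher in the cerebellum (LFC −6.66 ± 0.16). Per kb of exon, Cbln1 and Cbln3 made up 40.9% ± 1.2 and 57.7% ± 0.43 of the cerebellins of the cerebellum, whereas Cbln2 and Cbln4 made up 58.0% ± 2.8 and 33.2% ± 4.2 of those of the cortex. Of 10 cerebellin, neurexin and neuroligin genes, 6 were higher in the cortex and 2 in the cerebellum (30.3% and 29.9% of all tested genes).

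Vesicular and glial glutamate transporters differed in their proportions. Slc17a7 made up 97.4% ± 0.31 of the vesicular glutamate transporters of the cortex and 76.3% ± 11.6 of those of the cerebellum per kb of exon, and Slc17a6 made up 2.30% ± 0.28 and 23.6% ± 11.5. The cerebellar share of Slc17a6, the transporter of brainstem and thalamic neurons, was 36.7% in library 2, 15.2% in library 4 and 19.0% in library 6. Its normalized count was 6803, 2878 and 3911 in those WT libraries and 982, 1117 and 1309.9 in the SCA1 KI cerebellum libraries 1, 3 and 5. The LFC of Slc17a6 was −1.56 ± 0.26, and −1.22 without the cerebellum library 2. Slc1a2, the glial transporter GLT-1, made up 83.0% ± 1.5 of the pair of glial transporters in the cortex and 41.5% ± 5.0 in the cerebellum, and Slc1a3, the transporter GLAST of Bergmann glia, the rest. Of 16 genes for transmitter synthesis and transport, 6 were higher in the cortex and 9 in the cerebellum (30.3% and 29.9% of all tested genes).

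**Figure D4:**
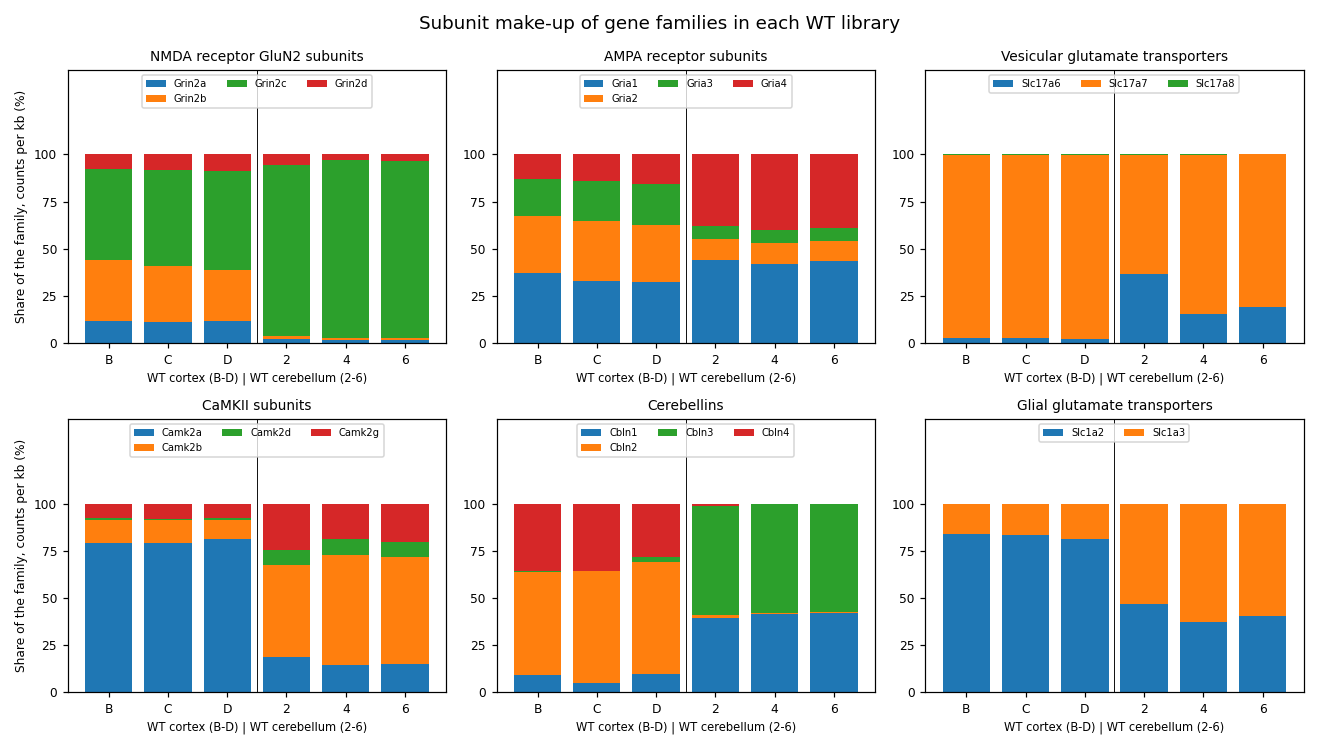
Share of each gene in the normalized counts per kb of exon of its family (percent), stacked for each WT cortex library (B, C, D) and each WT cerebellum library (2, 4, 6), for 6 families. Grin2c takes 90.4% to 94.5% of the GluN2 subunits of the cerebellum libraries and Camk2a takes 79.0% to 81.1% of the CaMKII subunits of the cortex libraries.

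Among voltage-gated channels, some genes were higher in each region. Of 32 Kv and HCN channel genes, 18 were higher in the cortex and 11 in the cerebellum, and of 24 calcium and sodium channel genes, 11 and 5 (median LFC 0.48 and 0.19). Of all tested genes, 30.3% were called toward the cortex and 29.9% toward the cerebellum. The share of Kcnc1 among the Kv3 subunits per kb was 28.7% ± 0.83 in the cerebellum and 28.2% ± 0.51 in the cortex, with p = 0.5 in the two-sided exact permutation test and a difference of −0.47 percentage points (cortex minus cerebellum). Kcnh3, a channel of forebrain neurons, had 8138, 8209.9 and 8517 counts in the cortex and 66.6, 83.1 and 86.2 in the cerebellum (LFC 6.71 ± 0.11). Kcnq5 (LFC 4.71) and the sodium channel subunit Scn3b (3.32) were also higher in the cortex. The calcium channels Cacna1a, the P/Q-type channel of Purkinje cells (−0.80 ± 0.11), and Cacna1g, a T-type channel (−1.92 ± 0.086), were higher in the cerebellum.

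Calcium signaling held some of the most abundant transcripts of both regions. Of 39 genes of calcium and calmodulin signaling, 24 were higher in the cortex and 12 in the cerebellum (median LFC 0.45). Among all tested genes the shares were 30.3% and 29.9%. Camk2a made up 79.7% ± 1.2 of the CaMKII subunits of the cortex and 16.0% ± 2.2 of those of the cerebellum per kb of exon, and Camk2b 11.6% ± 1.0 and 54.7% ± 4.9. The normalized count of Camk2b itself differed little (LFC 0.32 ± 0.09, or 0.23 and under the limit without the cerebellum library 2). Camk2n1 was higher in the cortex (129682, 154705 and 161189.7 against 13208, 11608 and 12601 counts, LFC 3.57 ± 0.094), and so was Camkk2, a kinase that activates other CaM kinases (LFC 0.78 ± 0.12). Of the 9 protein kinase C genes, 4 were higher in the cortex and 1 in the cerebellum (30.3% and 29.9% of all tested genes). Prkcb was among the 4 (69985, 70253 and 63037 against 21826, 26499.9 and 25421 counts, LFC 1.47 ± 0.088). Prkcd was higher in the cerebellum (2622, 2563 and 2669.7 against 304, 289 and 348, LFC −3.06 ± 0.091).

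Most genes of neuropeptides, aminergic receptors and activity-dependent responses were higher in the cortex. Of 20 neuropeptide genes, 15 were higher in the cortex and none passed toward the cerebellum (median LFC 2.90). Among all tested genes the shares were 30.3% and 29.9%. Without the cortex library B, 13 neuropeptide genes were higher in the cortex and 1 in the cerebellum. The summed count of this list was 66946 to 69258 in the cortex and 33662 to 42963 in the cerebellum. Cck, the peptide cholecystokinin, had 11245, 12498 and 13450.4 normalized counts in the cortex and 1165, 1206 and 1331 in the cerebellum (LFC 3.33 ± 0.085), and Npy 2655, 2514 and 3008 and 326, 337 and 368 (LFC 2.98 ± 0.095). Penk, which encodes the enkephalins, had overlapping libraries (LFC −0.26 ± 0.22) and was higher in the cerebellum without the cortex library B (LFC −0.52). Of 35 serotonin, dopamine, adrenergic and acetylcholine receptor genes, 22 were higher in the cortex and 5 in the cerebellum. Htr2a (3.80) and Chrm3 (3.73) were among the first. Chrnb4, a nicotinic subunit that was higher in the WT cerebellum (77.6, 75.7 and 78.0 against 7.13, 8.86 and 3.42 counts), lay at 2.53 to 10.6 counts in the SCA1 KI cerebellum libraries.

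Of 16 immediate early genes, which neurons switch on within minutes of firing, 13 were higher in the cortex and none was higher in the cerebellum (median LFC 2.72). The shares among all tested genes were 30.3% and 29.9%. Egr3 had 7931, 12423 and 6081 normalized counts in the cortex and 109, 89.2 and 107 in the cerebellum (LFC 6.37 ± 0.22), Egr1 14234, 21059 and 12349 and 1484, 1421 and 1741 (LFC 3.33 ± 0.17), and Arc, which regulates AMPA receptors at active synapses, 9641, 14995 and 8367 and 900.2, 886 and 952 (LFC 3.54 ± 0.18). In the order B, C and D, the cortex library C was the highest in these 3 genes. The summed count of the list was 60025 in library B, 88980.3 in C and 53166 in D, and 10594 to 14128 in the cerebellum. Fos itself overlapped between the regions (1180.0, 2289.7 and 1543 and 606, 1467 and 1148 counts, LFC 0.68 ± 0.32), but it was higher in the cortex without the cerebellum library 4 (LFC 0.95). Without the cerebellum library 2, 12 of the genes were higher in the cortex and 2 in the cerebellum. Of 18 clock genes, 9 were higher in the cortex and 4 in the cerebellum (median LFC 0.52), against 30.3% and 29.9% of all tested genes, and the CLOCK-like factor Npas2 was among the first (LFC 3.17).

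Of 21 genes of neurotrophins and growth factors, 5 were higher in the cortex and 11 in the cerebellum (median LFC −0.37), against 30.3% and 29.9% of all tested genes. The Sonic hedgehog targets Gli1 (480.2, 585 and 544 against 80.8, 73.1 and 84.3 normalized counts, LFC −2.74 ± 0.13) and Ptch1 (5681, 7214 and 6589 against 1704, 1607 and 1539, LFC −2.00 ± 0.093) were higher in the cerebellum.

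Non-neuronal cell types differed in direction. All 15 microglial markers were higher in the cortex, by LFCs of 1.01 to 1.79 (median 1.54), against 30.3% of all tested genes. P2ry12, a purinergic receptor of resting microglia, had 1968, 1955 and 2299 normalized counts in the cortex and 733, 535 and 542 in the cerebellum (LFC 1.79 ± 0.13), and Aif1, which encodes Iba1, 152, 153 and 157 and 61.2, 44.0 and 32.6 (LFC 1.77 ± 0.23). The summed count of the 15 genes was 22526 to 25365 in the cortex and 8245 to 11127 in the cerebellum, with the cerebellum library 2 the highest of its group. Of 20 astrocyte markers, 5 were higher in the cortex and 10 in the cerebellum, against 30.3% and 29.9% of all tested genes. Their LFCs lay between −3.53 and 5.01 (median −0.24), with Lhx2 the highest. The summed count of the list was higher in the cortex, at 464752 to 475136 against 358551 to 405001 in the cerebellum. Gfap, the intermediate filament of astrocytes, was slightly higher in the cerebellum (8581, 5511 and 6023 against 4828, 4026 and 5066 counts, LFC −0.51 ± 0.16, adjusted p = 0.0185 from limma). Without the cortex library C this call was lost (LFC −0.41, adjusted p = 0.0807 from limma), and without the cerebellum library 2 the LFC was −0.32. Agt, which encodes angiotensinogen, was higher by an LFC of −3.53 ± 0.15. Of 9 markers of Bergmann glia, the radial astrocytes of the cerebellum, 8 were higher in the cerebellum, led by Gdf10 (4729, 6144 and 6241 against 294, 230.3 and 299 counts, LFC −4.37 ± 0.14). The remaining 1 was higher in the cortex, with an LFC of 2.78. The shares among all tested genes were 29.9% toward the cerebellum and 30.3% toward the cortex.

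Of 20 genes of the oligodendrocyte lineage, 13 were higher in the cerebellum and 3 in the cortex (29.9% and 30.3% of all tested genes). Genes of myelin such as Mbp (103385, 63379 and 74212 normalized counts in the cerebellum and 54201, 32242 and 31167 in the cortex, LFC −1.05 ± 0.23) were higher in the cerebellum. The 3 genes that were higher in the cortex were Pdgfra (2422, 2239 and 2360.1 against 1373, 1132 and 1101 counts, LFC 0.97 ± 0.10), Cspg4 (0.76) and Gpr17 (0.95), all of progenitor cells. The summed count of the list was highest in the library that stood apart of each region, 162143 in cortex library B against 105719 and 98393 in C and D, and 305251 in cerebellum library 2 against 205334 and 227470.0 in 4 and 6. With both of these libraries left out, 5 of the 20 genes were higher in the cortex and 14 in the cerebellum. None of 16 genes of endothelium and mural cells was called in either direction. Their LFCs lay between −0.25 and 0.51 (median 0.084), as in Cldn5, a tight junction protein of blood vessels (1512, 1617 and 1059 and 1449, 1441 and 1302 counts, LFC −0.02 ± 0.15). With the cerebellum library 2 and the cortex library B left out, 1 of them was higher in each region. No gene of this list was apart between the regions, whereas 70% of all tested genes were.

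All 12 choroid plexus markers were higher in the WT cerebellum (median LFC −3.98), and their level depended on the library. Ttr, which encodes transthyretin, had 19396, 65781 and 17295 normalized counts in the cerebellum libraries 2, 4 and 6 and 1298, 41.0 and 54.6 in the cortex libraries B, C and D. Otx2, a factor that the choroid plexus shares with granule cells and the midbrain, had 593, 792 and 584 and 8.32, 6.64 and 4.55 counts (LFC −6.47 ± 0.24). The summed count of the list was 38887 to 124463 in the WT cerebellum and 10153 to 13325 in the WT cortex. For the lists of tissue next to the dissected regions, 6 of 9 thalamic markers and 5 of 9 tested midbrain markers were higher in the cerebellum. The thalamic list shares Rora with the Purkinje cell list and Prkcd with the list of other cerebellar neurons, so it is not specific to neighboring tissue. None of 8 tested Hox genes was called by limma, although 4 of them had no read in any cortex library. edgeR called 6 of these 8 as higher in the cerebellum, and limma called 4 without the cerebellum library 4, 3 without library 6 and 1 with all 12 libraries in the fit. Their median LFC was −2.49, and without the cerebellum library 2 it was −0.66 and none was called. Of 11 tested striatal markers, 5 were higher in the cortex and 1 in the cerebellum. Once the cortex library B was left out, 4 were higher in the cortex and 4 in the cerebellum. Without the cerebellum library 4 or library 6, 3 were higher in the cortex and 1 in the cerebellum. Of 10 meningeal fibroblast markers, 6 were higher in the cerebellum and none in the cortex. For all these lists, the shares among all tested genes were 29.9% toward the cerebellum and 30.3% toward the cortex. Of 9 hippocampal markers, 5 were higher in the cortex and 4 in the cerebellum, among them Calb2, which granule cells also express. The 1 tested blood gene passed in neither direction.

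Atxn1, the gene that carries the repeat in SCA1 (chr13:45549755-45965008, minus strand), had 8147, 7443 and 6521 normalized counts in the WT cortex and 3737, 3628 and 3671 in the WT cerebellum. Its mean was 7370.4 ± 815 against 3679 ± 54.9 (SD, n = 3), an LFC of 1.00 ± 0.084 (adjusted p = 8.70e-06 from limma), and the groups did not overlap. Exons of Atxn1 overlap those of Gmpr. Of 39 tested genes of ataxia and polyglutamine disease, 13 were higher in the cortex and 18 in the cerebellum (median LFC −0.24), against 30.3% and 29.9% of all tested genes. Of these, Itpr1 is also a Purkinje cell marker. Sqstm1, which encodes the autophagy receptor p62, was higher in the cortex (16223, 16004 and 16329.7 against 12291, 10769 and 11396 counts, LFC 0.50 ± 0.066), and its exons overlap those of Mrnip.

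Genes often used as references were not equal between the regions. Of 12 such genes, 8 were higher in the cortex and 3 in the cerebellum, against 30.3% and 29.9% of all tested genes. Actb had 45451, 40411 and 39726 normalized counts in the cortex and 26317, 24913 and 28687 in the cerebellum (LFC 0.65 ± 0.08), Gapdh 38181, 35387 and 39200.2 and 27407, 26053 and 26595 (LFC 0.49 ± 0.065), and Hprt 5010.0, 6781 and 6691 and 5062, 4841 and 4592 (LFC 0.34 ± 0.11, with overlapping libraries). The call of Hprt was lost when library C, D, 4 or 6 was left out (LFC 0.26 to 0.34). Rplp0, a ribosomal protein, passed in neither direction (LFC 0.10 ± 0.086). These values hold on the scale of the deposited size factors, and other scalings gave a median LFC of all genes between −0.0061 and 0.019. Sparcl1, which astrocytes secrete, was among the 5 most abundant genes per kb of the cerebellum and passed in neither direction (30073 ± 2236 counts per kb in the cerebellum and 29045 ± 1119 in the cortex, LFC −0.05 ± 0.077).

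The SCA1 KI libraries, 3 of cortex and 3 of cerebellum, gave the same contrast in mice that the WT comparison did not use. In them, 4918 genes (32%) were higher in the cortex and 4692 (30.5%) in the cerebellum. Of the 9259 genes called in WT, 7802 (84.3%) were called in the same direction and 72 in the opposite one, and 8972 had the same sign. Of the 3626 genes at least 2-fold different in WT, 3373 were called in the same direction in SCA1 KI and 2887 of them by at least 2-fold. Across the 15368 genes, which are not independent, the LFCs of the 2 contrasts had Pearson's r of 0.918. The regional LFC differed between the genotypes at an adjusted p under 0.05 in 1253 genes (8.15%). The cortical gene Fezf2 (LFC 9.58 in SCA1 KI) and the cerebellar genes Gabra6 (−13.78), Pcp2 (−12.27) and Cbln3 (−11.91) kept their direction.

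**Figure D5:**
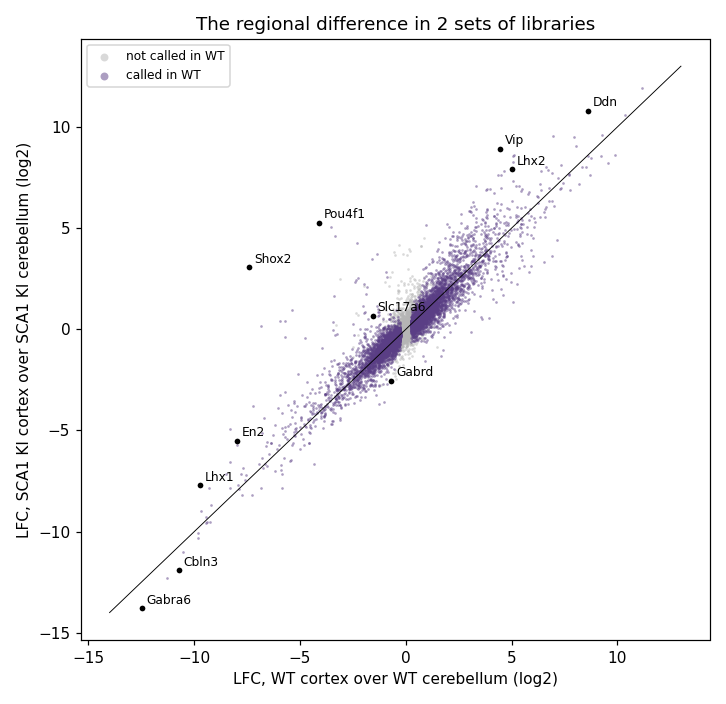
LFC (cortex over cerebellum, log2) of each of the 15368 tested genes in the WT libraries (horizontal axis) and in the SCA1 KI libraries (vertical axis), with the line of equal values. Purple points are genes called in WT, and labelled genes include Shox2 and Pou4f1, which are higher in the cerebellum in WT (−7.39 and −4.09) and higher in the cortex in SCA1 KI (3.07 and 5.26).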

How the data were processed

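Poly-adenylated RNA of 3 WT cortices and 3 WT cerebella of mice at 12 weeks was sequenced as paired 75 bp reads. The authors used STAR for alignment to mm10 and featureCounts for counting, and divided each library's counts by its DESeq2 size factor. Versions, annotation and the strand setting of the counting are not given in the sources used here. The deposited values are therefore a signal, normalized counts per gene, from which whole reads were recovered (100% of values, tolerance 0.001 reads), with 29520855 to 38335590 reads per WT library.

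Of 15759 entries, 24 symbols had turned into dates, and 15009 of 15758 distinct symbols matched GENCODE vM21 (GRCm38), which gave coordinates and exon lengths. The exon length of a gene merges the exons of all its annotated transcripts, so values per kb depend on that annotation. Genes with a mean of at least 10 over the 6 WT libraries were tested on log2(normalized count + 1) with limma 3.58.1 (R 4.3.3, empirical Bayes with trend, Benjamini-Hochberg adjustment over 15368 genes), with no covariate and an LFC limit of 0.25. With this pseudocount, folds of weakly expressed genes come out too small. Design text states biological replicates. Intervals, at 95%, and floors, at 3 reads over the group, cover counting error only. In a simulation, counts of all 6 libraries were drawn with the means and dispersions of the WT cortex. At each fold, 50 genes were changed among 15368, all of them with a mean above 50. With limma, 76% were recovered at 1.5-fold, 90% at 2-fold and 100% at 4-fold and 8-fold, and 14 of 15168 unchanged genes were called. These rates do not cover weaker genes, the spread between cerebellum libraries or a comparison in which 60.2% of the genes are called.

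The members and the 38 gene lists were chosen with earlier results of these data known. Named genes were the 12 of largest LFC in each direction among called genes without overlap and with a mean of at least 1000 in the higher region, the 5 highest genes found in each region only, the 5 with most counts per kb in each region, members of the lists, and genes the study names (Aif1, Atxn1, Camkk2, Gfap, Prkcb, Rbfox3 and Sqstm1). Alternatives were pseudocounts of 0.5 and 5, no filter or a mean of 100, median centring, TMM scaling, edgeR 4.0.16 and DESeq2 1.42.0 on recovered reads, removal of a length and GC trend, thinning to 29520855 reads, other LFC limits and floors, all 12 libraries in the fit, and each library left out. Leaving out the cerebellum library 2 and the cortex library B together, and leaving out each SCA1 KI library from the count of genes found in 1 region only, were added after seeing the data. Some genes that this rule names are not reported here.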

Additional observations from a re-analysis of the deposited data

Results flagged for a closer look

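Of the 133 named genes tested, 36 had a regional LFC that differed between the WT and the SCA1 KI libraries at an adjusted p under 0.05 (limma over all 12 libraries, interaction of region and genotype), against 8.15% of all tested genes. Part of the named genes were chosen for their large WT LFC or their place in the marker lists, so these shares are a description and are not compared. The values below are the WT LFC minus the SCA1 KI LFC. The part of dissection in these differences was not tested.

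The sign of the LFC differed between the genotypes in 9 genes, with the largest differences in Shox2, Pou4f1, Six3 and Gata3, which encode transcription factors. The 9 genes were Camkk2 (0.78 in WT and −0.24 in SCA1 KI, difference 1.02), Chrnb4 (−3.47 in WT and 0.35 in SCA1 KI, difference −3.81), Cux1 (0.06 in WT and −0.85 in SCA1 KI, difference 0.91), Gata3 (−5.94 in WT and 0.41 in SCA1 KI, difference −6.35), Pou4f1 (−4.09 in WT and 5.26 in SCA1 KI, difference −9.35), Rbfox3 (0.34 in WT and −0.39 in SCA1 KI, difference 0.73), Shox2 (−7.39 in WT and 3.07 in SCA1 KI, difference −10.46), Six3 (−3.52 in WT and 5.05 in SCA1 KI, difference −8.57) and Slc17a6 (−1.56 in WT and 0.66 in SCA1 KI, difference −2.22).

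Among genes that were higher in the cortex in both genotypes, the LFC was smaller in WT for Cbln2 (−3.26), Ddn (−2.19), Egr3 (−1.46), Emx2 (−3.15), Grm5 (−1.38), Kcnh3 (−1.14), Lhx2 (−2.90), Nrgn (−3.52), Scn3b (−1.74), Sst (−2.60) and Vip (−4.48). It was larger in WT for Arc (1.28), Camk2n1 (1.02), Grin1 (0.38), Grm2 (1.17), Npas2 (0.93), Prkcb (1.08), Slc17a7 (0.85) and Tbr1 (0.98). Among genes that were higher in the cerebellum in both, the LFC was nearer to 0 in WT for Cacna1a (0.54), Gabrd (1.86), Gria4 (0.39), Grin2c (0.77), Itpr1 (0.64), Kcnc1 (0.58) and Slc1a3 (0.46), and farther from 0 in WT for En2 (−2.48).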

How the results depend on the processing

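The count of genes higher in the WT cortex lay between 3875 and 4940 and that of genes higher in the WT cerebellum between 3940 and 4839 over the pseudocounts, filters, scalings, tools, LFC limits and the length and GC correction tried. Leaving out 1 WT library at a time gave 4311 to 4683 and 4070 to 4593. On recovered reads edgeR called 4614 and 4665 genes and DESeq2 4542 and 4473. With the cerebellum library 2 and the cortex library B both left out, an alternative chosen after seeing the data, 4680 and 4585 were called. With an LFC limit of 2, 838 and 586 genes were left of those called at least 2-fold higher in the cortex and cerebellum, and leaving out 1 library gave 1928 to 2153 and 1545 to 1704. The 39 genes found in the cortex only became 8 with a floor of 0 reads, 84 with 10 reads and 24 with a mean of at least 100, and 38 to 60 with 1 library left out. The 40 found in the cerebellum only became 12, 85 and 25, and 36 to 49. In SCA1 KI, 6672 to 7925 of the called genes were called in the same direction, and 7463 to 7803 with 1 SCA1 KI library left out. Of the single genes, those whose LFC changed sign were never called in the main test. With 1 library left out, the LFC ranged from −0.14 to 0.16 for Cldn5, −0.52 to 0.0051 for Penk, −0.096 to 0.0091 for Sparcl1 and −0.0036 to 0.48 for Syt6. With 2 libraries left out it was −0.034 for Cux1 and 0.034 for Sparcl1, and DESeq2 gave 0.022 for Drd2. The cause was not tested. No paired analysis was possible because the library names carry letters and numbers that are not the replicate numbers of the labels and that share none between the regions.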
